A study of Mus musculus with 8 samples.

Results

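Nbl1 and the Id genes Id1, Id2, Id3 and Id4 were followed in visual cortex of mice that had lost 1 eye. All probe sets annotated to exactly 1 of these symbols were taken, which gave 5 probe sets, 1 for each of 5 genes, out of 8251 genes with a probe set on the array. Nbl1 had been picked because its signal was lower in deprived cortex in this comparison, so its values are given as a description and were not tested. The Id genes were picked by name as genes that respond to bone morphogenetic protein (BMP) signalling, and the comparison asks whether they differed along with the lower BMP antagonist. That choice was made with earlier results of these data known.

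The tissue came from 4 wild-type C57Bl6 mice. Each had monocular enucleation at postnatal day 20 and was killed 4 days later, at postnatal day 24. The non-deprived group (4 arrays) is cortex ipsilateral to the removed eye and the deprived group (4 arrays) is cortex contralateral to it. In mice the contralateral cortex receives most of the input from an eye. Both groups thus came from operated animals, and a lower value in one hemisphere cannot be told apart from a higher value in the other. Replicates are numbered 1 to 4 in each group, but the series design speaks of pooled samples, so an array may stand for 1 mouse or for several, and p-values rest on a spread that may be technical.

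Nbl1, also called DAN, encodes a secreted cysteine-knot protein that binds BMP ligands outside the cell and keeps them from their receptors. BMP receptors phosphorylate Smad1, Smad5 and Smad9, which enter the nucleus with Smad4 and switch on target genes, the Id genes among the best known. Id proteins have a helix-loop-helix but no basic DNA-binding region, so they pair with basic helix-loop-helix (bHLH) factors such as the E proteins and hold them off DNA. In the brain Id1 and Id3 are known from endothelium and astroglia, Id2 also from cortical neurons, and Id4 from neural progenitors and astroglia.

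The Id genes are direct Smad targets, so the stretch upstream of each start site is shown for Id2, Id3 and Id4. RefSeq windows (GRCm38.p6) were matched for 4 of the 5 genes, all but Id1. The window of Nbl1 runs into the annotated gene and is not printed. Each sequence below is the 250 bases before the start site, 5′ to 3′ on the gene's strand. Capitals mark GGCGCC, a GC-rich Smad1 and Smad5 site that is its own reverse complement, and CAGAC or its reverse complement GTCTG, a Smad4 element. The Id2 window is chr12:25096093-25096342 on the minus strand, that of Id3 is chr4:136143572-136143821 on the plus strand, and that of Id4 is chr13:48260866-48261115 on the plus strand.
Id2: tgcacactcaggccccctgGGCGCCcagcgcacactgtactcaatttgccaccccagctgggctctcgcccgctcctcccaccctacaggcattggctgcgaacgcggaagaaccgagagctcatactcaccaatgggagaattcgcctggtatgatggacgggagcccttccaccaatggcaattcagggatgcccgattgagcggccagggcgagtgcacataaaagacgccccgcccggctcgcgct
Id3: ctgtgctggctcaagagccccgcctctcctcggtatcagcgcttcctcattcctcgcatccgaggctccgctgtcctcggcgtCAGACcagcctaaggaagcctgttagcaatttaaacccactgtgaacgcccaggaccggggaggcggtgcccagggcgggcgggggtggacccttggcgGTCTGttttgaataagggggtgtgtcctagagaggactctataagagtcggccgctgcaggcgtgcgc
Id4: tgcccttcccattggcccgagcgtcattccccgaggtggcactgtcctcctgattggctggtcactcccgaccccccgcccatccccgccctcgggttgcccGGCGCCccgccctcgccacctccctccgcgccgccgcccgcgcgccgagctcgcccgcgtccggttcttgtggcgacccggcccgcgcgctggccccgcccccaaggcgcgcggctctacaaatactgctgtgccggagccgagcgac
GGCGCC was found once in the Id2 window, starting 231 bases upstream, and once in the Id4 window, 148 bases upstream. CAGAC or GTCTG was found at 2 places in the Id3 window, 167 and 68 bases upstream, and in neither of the others, and the motifs did not overlap. The Nbl1 window, which is not printed, also held GGCGCC once, 179 bases upstream, and no CAGAC or GTCTG. Of 32851 mouse promoter windows of this length, 9.59% held GGCGCC and 42.2% held CAGAC or GTCTG. These matches describe letters only.

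Nbl1 signal was lower on every deprived array than on any non-deprived array. The deposited values are linear signal intensities, a unit that orders arrays for 1 probe set but does not compare genes. In non-deprived cortex the signal of Nbl1 was 379.0, 407.6, 452.8 and 520.4 on replicates 1 to 4, a mean of 440.0 ± 61.6 (SD, n = 4). In deprived cortex it was 85.1, 225.0, 66.7 and 286.5, a mean of 166 ± 107 (SD, n = 4), or 37.7% of the non-deprived mean. The groups did not overlap, which held for 0.805% of the 7453 probe sets analysed with deprived arrays below; Nbl1 was chosen on this contrast, so nothing is read from that.

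The lower Nbl1 values were uneven. Replicates 1 and 3 of deprived cortex were low and replicates 2 and 4 intermediate, and the highest deprived value was 4.29 times the lowest, against 1.37 times in non-deprived cortex. On the scale of log2(signal + 15.3), which understates changes of dim genes, the difference of Nbl1 (deprived minus non-deprived) was -1.53. It ran from -1.85 without deprived replicate 4 to -1.22 without deprived replicate 3. The deprived values of replicates 1 and 3 lay below the signal of about 110.0 that served as the filter on dim probe sets, so their size is uncertain. In bulk tissue, fewer cells that make a transcript and less of it per cell cannot be told apart.

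**Figure D1:**
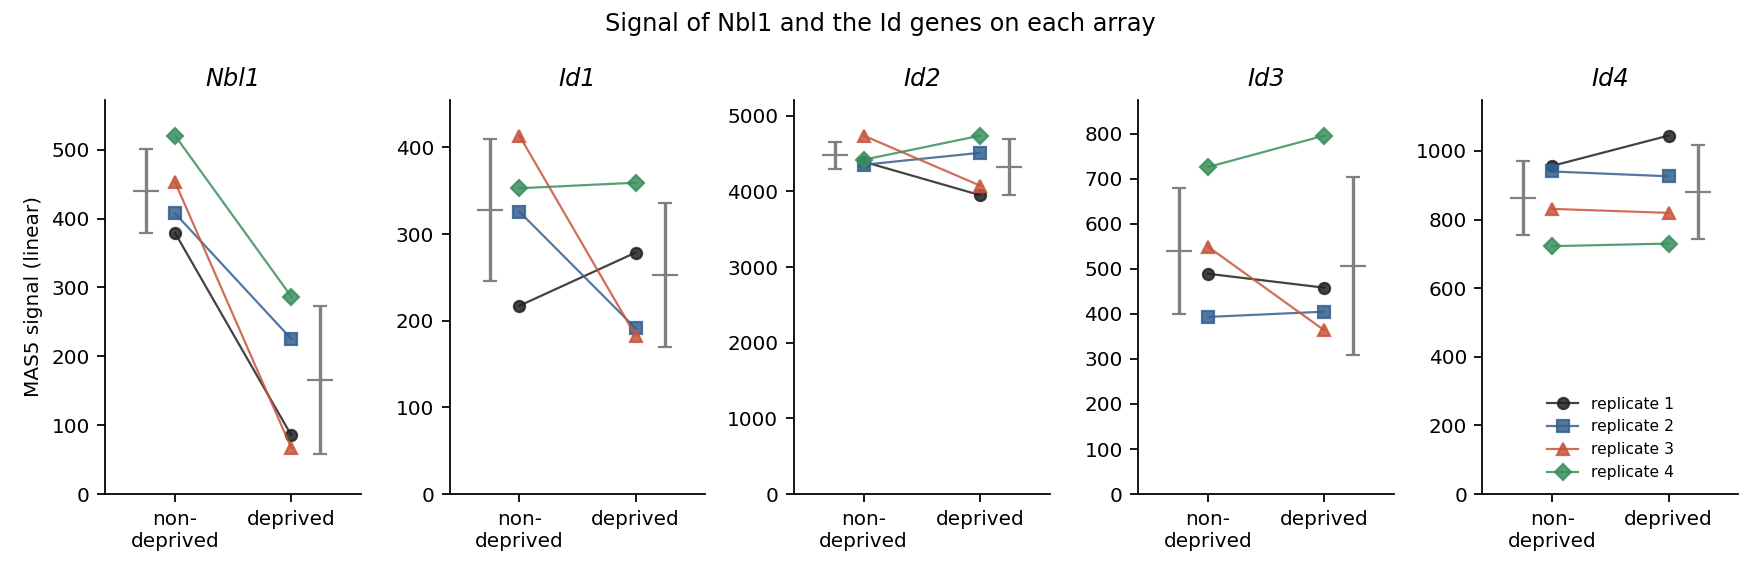
Linear MAS5 signal of Nbl1, Id1, Id2, Id3 and Id4 on each of 8 arrays, with lines joining same-numbered arrays and grey bars giving mean and SD of each group (n = 4). The Nbl1 values of deprived cortex, 66.7 to 286.5, lie below all non-deprived values, 379.0 to 520.4, while the groups overlap for each Id gene.

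None of the 4 Id genes passed the test between hemispheres. In limma's fit over all 7453 probe sets, two-sided and with Benjamini-Hochberg adjustment, 0% of probe sets passed an adjusted p of 0.05 in either direction. The share at an unadjusted p under 0.05 was 2.67%, and 0 of the 4 Id genes were among them. Each Id gene was lower in the deprived array of 2 of 4 same-numbered pairs and higher in the other 2.

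Id1, the Id gene most often used as a readout of BMP signalling, had the largest difference of the 4. Its signal was 217.3, 325.8, 413.6 and 352.8 on the non-deprived arrays and 278.6, 191.2, 182.6 and 359.3 on the deprived arrays. Deprived replicates 2 and 3 lay below all non-deprived arrays, and replicates 1 and 4 within their range. The means were 327 ± 82.1 and 253 ± 83.1 (SD, n = 4). The log2 difference was -0.37 ± 0.25 (SE), with a 95% interval of -0.92 to 0.18, which corresponds to folds of 0.529 to 1.13 on that scale. The limma adjusted p was 0.996, and the exact two-sided permutation p over 70 assignments of the arrays was 0.229, where the smallest possible is 0.0286. That test ignores the pairing of same-numbered arrays, and an exact sign-flip test over the 4 pairs, whose smallest possible p is 0.125, gave 0.5 for Id1 and Id2, 0.75 for Id3 and 0.875 for Id4. Without deprived replicate 4 the difference was -0.55, with an unadjusted limma p of 0.0461 (adjusted p = 0.782), and without deprived replicate 3 it was -0.24. With a measure of RNA integrity as a covariate it was 0.06 (actin control ratio) or -0.19 (Gapdh control ratio).

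Id3, which is often induced together with Id1, overlapped between hemispheres. Its signal was 489.0, 393.2, 549.1 and 725.9 in non-deprived cortex and 458.2, 404.8, 363.5 and 795.8 in deprived cortex. The arrays numbered 4 were the highest of both groups, and the largest gap within a pair, 186 signal units, was that of replicate 3. The means were 539 ± 140.0 and 506 ± 197 (SD, n = 4), and the log2 difference was -0.12 ± 0.25 (SE) with a 95% interval of -0.67 to 0.42 (limma adjusted p = 0.996, exact permutation p = 0.686). The direction was not stable, at 0.0068 without deprived replicate 3 and 0.03 without non-deprived replicate 4.

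Id2, which opposes E proteins in neurons and glia, had the narrowest interval. It gave signals of 4392.4, 4352.2, 4738.0 and 4418.8 in non-deprived cortex and 3951.2, 4510.2, 4076.9 and 4736.7 in deprived cortex. Deprived replicates 1 and 3 lay below the non-deprived range and replicates 2 and 4 within it. The means were 4475 ± 177 and 4319 ± 367 (SD, n = 4). The log2 difference was -0.05 ± 0.12 (SE), with a 95% interval of -0.31 to 0.20, or folds of 0.808 to 1.15 (limma adjusted p = 0.996, exact permutation p = 0.457).

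Id4, known from neural progenitors and astroglia, differed more between replicate numbers than between hemispheres. Its signal was 956.4, 940.0, 830.9 and 722.3 in non-deprived cortex and 1044.6, 926.0, 819.4 and 729.9 in deprived cortex. The order of the replicates was the same in both hemispheres. Pair means spanned 274 signal units, and the largest gap within a pair was 88.3. The group means were 862 ± 109 and 880.0 ± 136 (SD, n = 4). The log2 difference was 0.02 ± 0.16 (SE), with a 95% interval of -0.32 to 0.37 (limma adjusted p = 0.996, exact permutation p = 0.971). With the replicate number fitted as a block the interval was -0.21 to 0.26. The log2 difference was -0.06 without deprived replicate 1, -0.0035 without deprived replicate 2 and -0.06 without non-deprived replicate 4.

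**Figure D2:**
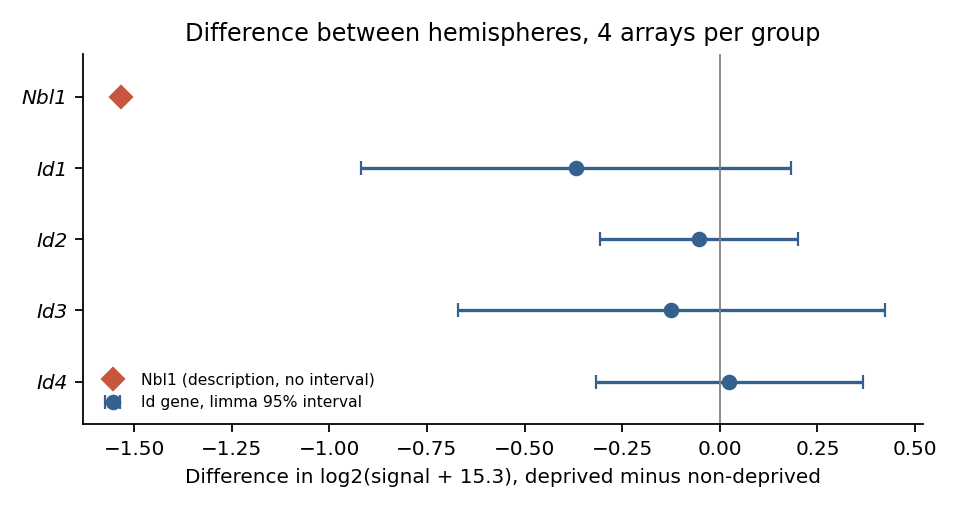
Difference between deprived and non-deprived cortex on the log2(signal + 15.3) scale for each gene, with the limma 95% interval for the Id genes (4 arrays per group). The interval of each Id gene holds 0, from -0.92 to 0.18 for Id1 down to -0.31 to 0.20 for Id2, and Nbl1, shown as a point with no interval, lies at -1.53.

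Set side by side within same-numbered pairs, the Id genes did not follow Nbl1 in one direction. In pair 3, which had the largest Nbl1 difference (-2.51), all 4 Id genes were lower in deprived cortex, with Id1 at -1.12, Id3 at -0.58, Id2 at -0.22 and Id4 at -0.02. In pair 4 Nbl1 was at -0.83 and all 4 Id genes were higher, by 0.01 for Id4 up to 0.13 for Id3. In pair 1 Nbl1 was at -1.97, and Id2 (-0.15) and Id3 (-0.09) were lower while Id1 (0.34) and Id4 (0.13) were higher. In pair 2 Nbl1 was at -0.82, and Id1 (-0.72) and Id4 (-0.02) were lower while Id2 (0.05) and Id3 (0.04) were higher. Id2 and Id3 were thus lower in the pairs with the larger Nbl1 differences and higher in the others, a description of 4 pairs that was not tested. Because Nbl1 was chosen for a gap between the groups, no correlation between it and the Id genes over all 8 arrays is given, and 4 arrays in a group are too few for one within it.

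**Figure D3:**
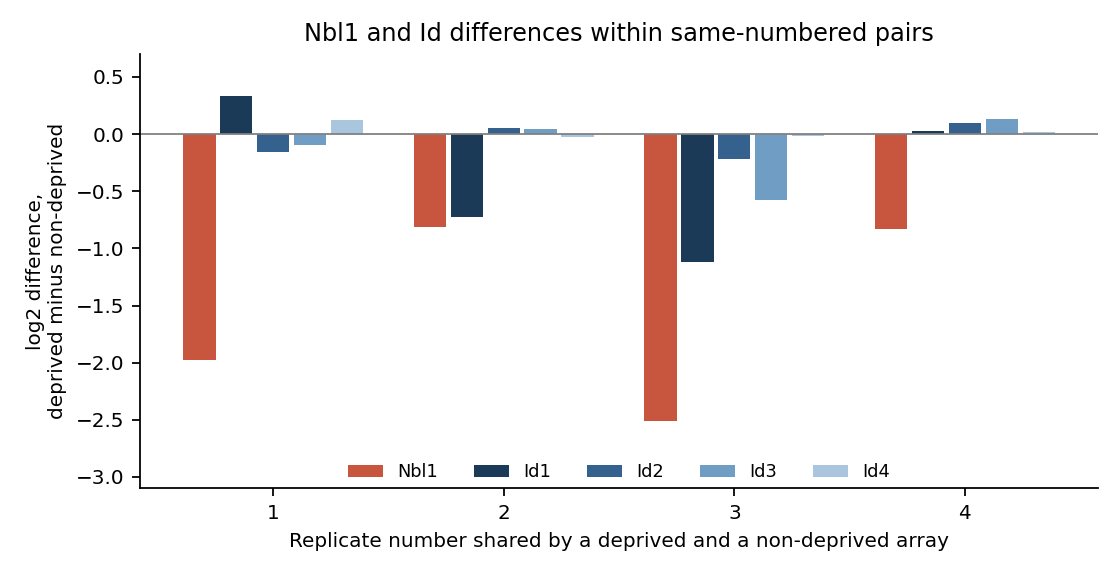
Log2 difference of signal plus 15.3, deprived minus non-deprived, for Nbl1 and each Id gene within each of the 4 same-numbered pairs. Nbl1 is below 0 in all 4 pairs, by -0.82 to -2.51, while 4, 2, 2 and 0 of the 4 Id genes are below 0 in pairs 3, 1, 2 and 4.

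Other genes of the pathway gave no call in either direction. In 6 lists, 61 of 87 genes had a probe set and 36 lay above the filter on dim probe sets, and 0 of those 36 passed an adjusted p of 0.05. The median log2 difference over the 36 was 0.11, with 13 below 0 and 23 above 0. Over all probe sets analysed the median was 0.02, and 45.1% lay below 0. The lists were chosen with earlier results of these data known.

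Among BMP ligands, 3 of 16 listed genes were measured, and the median was -0.01. Bmp4, a ligand that signals through the type I BMP receptors, had mean signals of 363 ± 36.7 (non-deprived) and 383 ± 45.2 (deprived; SD, n = 4). Gdf9 and Gdf10, of the related growth and differentiation factors, had log2 differences of -0.01 ± 0.17 and -0.06 ± 0.25 (SE). The other ligand genes with a probe set, among them Bmp2, Bmp6 and Bmp7, lay under the filter. Of 18 other extracellular regulators, 5 were measured, with a median of -0.04, 3 below 0 and 2 above. Noggin (Nog), the classical BMP antagonist, read 266.8, 153.9, 265.0 and 165.3 on the non-deprived arrays and 190.0, 164.7, 293.8 and 169.4 on the deprived ones. The groups overlapped fully for Nog, with a log2 difference of -0.05 ± 0.25 (SE). Fstl3, a follistatin-like protein that binds activin and related ligands, had 172 ± 53.7 and 205 ± 21.8 (SD, n = 4), a log2 difference of 0.26 ± 0.23 (SE), the BMP-binding protein Twsg1 was at -0.06 ± 0.21 (SE), and the secreted follistatin-like Fstl1 was at 0.24 ± 0.25 (SE). The ligand median lay between -0.06 and 0.11 with each array left out, and it was above 0 when the array left out was non-deprived replicate 1 (0.05), deprived replicate 1 (0.01) or deprived replicate 4 (0.11). The median of the regulators turned above 0 whichever of the 8 arrays was left out, at 0.0028 to 0.11.

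Receptors and co-receptors had the highest median of the 6 lists, 0.27, with 5 of 6 measured genes above 0 and 0 called. Of these, Acvrl1 was at 0.24 by its brightest probe set, while its other probe sets gave -0.07 and -0.06. Neo1, which encodes neogenin, a receptor for netrins and repulsive guidance molecules that also serves as a BMP co-receptor, was higher on every deprived array. It read 318.5, 395.2, 358.6 and 328.6 on the non-deprived arrays and 442.7, 483.5, 506.0 and 547.0 on the deprived ones. The groups did not overlap, which held with deprived arrays above for 1.22% of all probe sets analysed, and for 1 of the 36 list genes. The log2 difference of Neo1 was 0.48 ± 0.15 (SE), and it did not pass (limma adjusted p = 0.996, unadjusted p = 0.00693, with the replicate block adjusted p = 0.673). Its low unadjusted p was known when the list was made. Acvr2b, a type II receptor for activins and some BMPs, had 537 ± 68.1 and 673 ± 109 (SD, n = 4), higher in 4 of 4 pairs, with a log2 difference of 0.31 ± 0.16 (SE). Bmpr2, the type II BMP receptor, had 0.59 ± 0.36 (SE) at a low signal of 132 ± 76.5 and 183 ± 35.3. The type I receptor genes Bmpr1a and Bmpr1b and the related Acvr1 lay under the filter.

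Of the Smads and their regulators, 7 of 13 listed genes were measured, with a median of 0.01. Smad1, which carries the BMP signal to the nucleus, had 787 ± 94.3 and 880.0 ± 229 (SD, n = 4) by its brighter probe set, with a log2 difference of 0.12 ± 0.20 (SE), while its other probe set gave -0.07. Smad6 and Smad7, inhibitory Smads that BMP signalling itself induces, had log2 differences of 0.16 ± 0.23 and -0.12 ± 0.19 (SE). The sign of that median was not stable. It was -0.02 when deprived replicate 1 was left out, -0.01 for deprived replicate 2, -0.08 for non-deprived replicate 4 and 0.12 for non-deprived replicate 2, and adjusting for the actin control ratio gave -0.12.

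Of 11 other transcription factor genes that respond to BMP, 8 were measured, 2 below 0 and 6 above, with a median of 0.14. Hes1, a bHLH repressor known mainly as a Notch target, had 359 ± 93.2 and 453 ± 96.2 (SD, n = 4), and a log2 difference of 0.33 ± 0.21 (SE). Hey1, a related repressor, was at 0.18 ± 0.14 (SE), and the homeobox gene Dlx5, a marker of interneuron lineages, was at -0.41 ± 0.28 (SE). The median was 0.0029 without deprived replicate 2. A dim probe set of Hes5 under the filter had a log2 difference of 0.82, against -0.26 for the brighter one, so the probe sets of Hes5 disagreed.

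The bHLH factors that Id proteins bind or oppose had 7 of 16 listed genes measured, 2 below 0 and 5 above, with a median of 0.11. Leaving out deprived replicate 1 gave a list median of -0.03, leaving out deprived replicate 2 gave 0.04, and leaving out non-deprived replicate 4 gave 0.02. Adjusting for the actin control ratio gave -0.06. Tcf3, which encodes E proteins, read 273.5, 158.1, 213.3 and 223.8 on the non-deprived arrays and 401.7, 199.4, 343.4 and 306.0 on the deprived ones. It was higher in 4 of 4 pairs with overlapping groups, at a log2 difference of 0.48 ± 0.24 (SE) that did not pass (limma adjusted p = 0.996). The other E protein genes Tcf4 and Tcf12 were both at 0.11. Neurod2, a differentiation factor of excitatory neurons, had means of 1419.6 ± 246 and 1136 ± 305 (SD, n = 4), a log2 difference of -0.34 ± 0.20 (SE), and the related Neurod6 was at -0.26 ± 0.29 (SE).

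**Figure D4:**
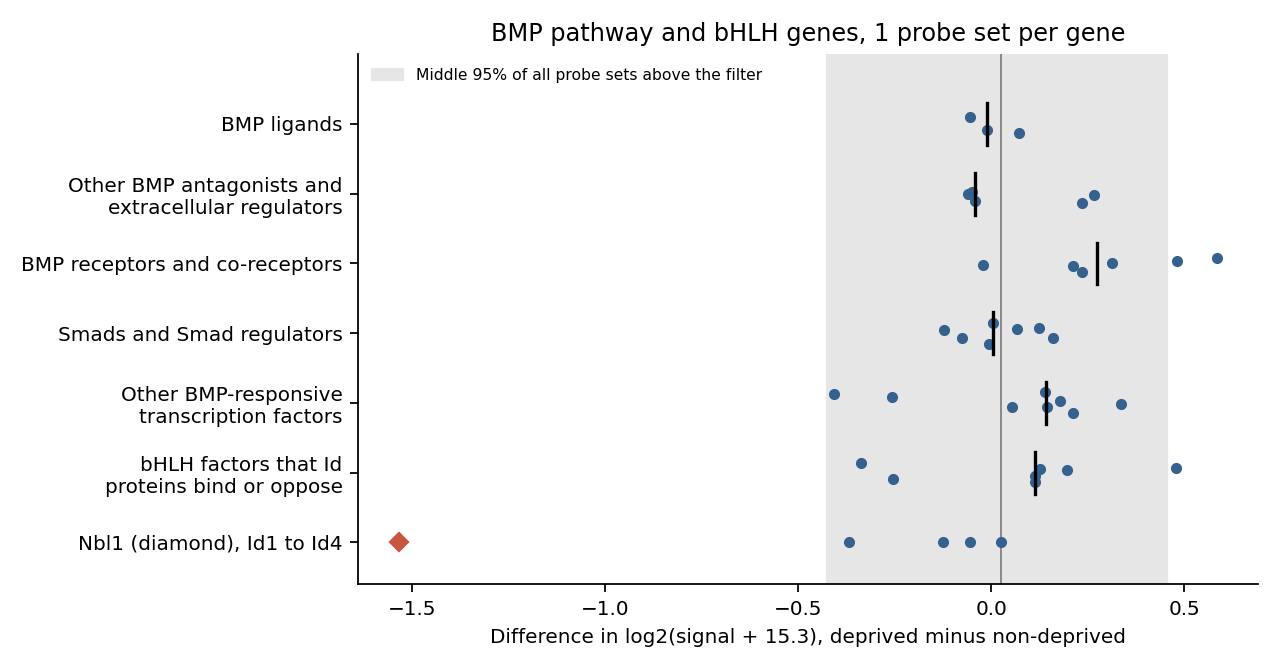
Log2 difference, deprived minus non-deprived, of each measured gene in 6 lists of BMP pathway and bHLH genes, with list medians as black bars, the Id genes as circles and Nbl1 as a diamond. The shaded band is the middle 95% of all probe sets analysed, -0.43 to 0.45, and Neo1, Bmpr2 and Tcf3 lie above it.

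By likeness over the 8 arrays, the probe sets closest to Nbl1 were those of Plekho1 (Pearson r = 0.961), Cd7 (0.955), Adra1b (0.930), Atp5c1 (0.915) and Mpdu1 (0.907). These encode a pleckstrin-homology protein, a lymphocyte surface protein, an alpha-1 adrenergic receptor, an ATP synthase subunit and a protein of dolichol-sugar use. The means of Plekho1 were 261 ± 26.8 on non-deprived and 128 ± 69.6 on deprived arrays (SD, n = 4), with a log2 difference of -1.10. The deprived means of Cd7 (113 ± 35.6) and Adra1b (93.2 ± 19.7) lay near or below the filter signal of about 110.0. For Id1 the closest were Atp5d (0.965), Arhgef25 (0.956) and Tubb3 (0.948), and for Id2 Aebp1 (0.971), Acvr1b (0.941) and Strn4 (0.938). For Id3 they were Gamt (0.985), Fmnl1 (0.972) and Gpx4 (0.970), and for Id4 Spice1 (0.969), Pbx3 (0.956) and Nrbp2 (0.953). No Id gene was among these few, but only the closest 5 for Nbl1 and 3 for each Id gene were kept, so nothing is read from that. These coefficients are descriptions over 8 arrays that share scaling and, for Nbl1, include the group difference. They are the highest of many, and how high they would run by chance was not tested. The genes closest to Id2 were dim or variable on deprived arrays. Their means there were 120 ± 69.4 (Aebp1), 135 ± 95.4 (Acvr1b) and 315 ± 294 (Strn4; SD, n = 4).

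Marker lists and array measures are given here by group, and their part in the results was not tested. Neuron markers (6 of 8 with a probe set, all above the filter) had summed signals of 24903 to 30862 on non-deprived and 24370 to 28676 on deprived arrays. Astrocyte markers (7 of 8) summed to 15636 to 20644 and 15336 to 19081, and endothelial markers (7 of 8) to 1634 to 2025 and 1543 to 2082. Mural and meningeal markers (10 of 10) summed to 4313 to 6264 and 5001 to 6929. Their sum was higher in the deprived array of 4 of 4 pairs. So was that of the thalamus markers (7 of 7), at 2013 to 2164 and 2037 to 2370. Of the thalamus markers, Lhx9 and Gbx2 lay under the filter, and 2 had log2 differences below 0 and 5 above. Hippocampus markers (4 of 5, of which only Wfs1 lay above the filter) summed to 1100.2 to 1265 and 961 to 1135. The sum was higher in the deprived array of 1 of 4 pairs. Wfs1 was lower on every deprived array than on any non-deprived one, which held for 0.805% of all probe sets analysed. The 3 other hippocampus markers had log2 differences above 0, but they lay under the filter, so no direction is read from them. All 3 choroid plexus markers with a probe set lay under the filter. The 10th percentile of signal was 12.6 to 14.2 on non-deprived and 15 to 21.1 on deprived arrays. For the actin control probe sets the ratio of 3' to 5' signal, which depends on RNA integrity, was 1.39 ± 0.179 and 1.64 ± 0.239 (SD, n = 4), higher in the deprived array of 3 of 4 pairs. The same ratio of the Gapdh control was lower in deprived cortex, 0.898 ± 0.0543 and 0.842 ± 0.0345 (SD, n = 4), in 4 of 4 pairs. With the actin ratio as a covariate Nbl1 was at -1.31, Id1 at 0.06, Id3 at 0.25 and Id4 at -0.12, and with the Gapdh ratio Nbl1 was at -1.50, Id1 at -0.19, Id3 at -0.10 and Id4 at 0.03. Median signals were 183 to 196 on non-deprived and 191 to 209 on deprived arrays, higher in the deprived array of 4 of 4 pairs. The number of arrays limits the precision.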

How the data were processed

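The authors deposited 1 table of MAS5 signal intensity per probe set for 8 arrays, per the submitters' processing notes, which name no version. Trimmed means of all arrays were near 500 (499.6 to 499.9). Each array was rescaled to 1 trimmed mean (2% off each end), 66 of 12488 probe sets were removed as controls, and values were put on the scale log2(signal + 15.3), where 15.3 is the 10th percentile of all signals. Probe sets with a mean above the 40th percentile were kept, 7453 of 12422. Of these 12422, 10833 had 1 gene symbol in the platform annotation, 396 several and 1193 none. For 10817 probe sets the symbol was taken by gene identifier from the GRCm38.p6 annotation, whether or not it changed. The highest-mean probe set stood for a list gene.

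The hemispheres were compared by lmFit and eBayes with an intensity trend (limma 3.58.1, R 4.3.3), after the fit was tested on simulated data. There it recovered 69.5% of changes with a log2 size of 1 and 98.8% of those with 2, with 11 false calls. Smaller changes were not simulated, so the test does not tell how often they would be called. Figures used matplotlib 3.10.9 in Python 3.11.15. Deviations from group means correlated at 0.16 to 0.42 between same-numbered arrays and at -0.27 to 0.12 between others, so the number was also fitted as a block. Alternatives varied pseudocount, filter, scaling, array weights, RNA-integrity covariates and arrays included.

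Members and lists were chosen with earlier results of these data known. Named list genes are those past the threshold, those with groups that do not overlap and the 3 with the smallest p per list. Nog, Tcf4, Tcf12, Hes5, Acvrl1, Bmp2, Bmp6, Bmp7, Bmpr1a, Bmpr1b, Acvr1 and Wfs1 were named outside that rule, after their values were seen. Likeness names 5 genes for Nbl1 and 3 for each Id gene.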

Additional observations from a re-analysis of the deposited data

Results flagged for a closer look

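Of 46 groups of 4 arrays examined, for Nbl1, the Id genes and the named list genes, 1 held an array far from the other 3, where chance flags about 1 in 20 groups (2.3 here). It was Neurod6 in non-deprived cortex, where replicate 1 had a signal of 558.6 and the others 257.3, 233.4 and 272.2, so that the gap to the nearest array was 0.881 of the group's range.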

How the results depend on the processing

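The count of probe sets called was 0 under all 19 alternatives, as was that of list genes called, while the number at an unadjusted p under 0.05 went from 199 to 134 to 432 with each array left out, 317 without deprived replicate 1 and 432 without deprived replicate 4, 492 with no filter, 97 with the filter at the 60th percentile, 370 with array weights, 535 with a random block and 524 with the replicate block. With the replicate block no Id gene passed (limma adjusted p = 0.711 for Id1, 0.906 for Id2, 0.857 for Id3 and 0.959 for Id4), and it changed no other call. Nbl1 was chosen on this contrast and its groups did not overlap, so leaving out an array could not turn its sign. Its difference ran from -1.85 to -1.22 under its 18 alternatives, and only that size is described. Adjusted p of the Id genes was 0.705 or more throughout. With the actin ratio as a covariate Id1 turned to 0.064, Id3 to 0.25 and Id4 to -0.12, and the cause was not tested. With arrays left out, Id1 ranged from -0.55 to -0.24, Id2 from -0.10 to -0.013, Id3 from -0.36 to 0.027 (0.0068 without deprived replicate 3) and Id4 from -0.061 to 0.11 (-0.0035 without deprived replicate 2, -0.056 without non-deprived replicate 4). With the actin ratio the ligand median moved to -0.18, that of the regulators to -0.13, that of the Smads to -0.12 and that of the bHLH factors to -0.06. The median of the other BMP-responsive factors moved to 0.036 with the actin and 0.017 with the Gapdh ratio, and ranged from 0.0029 to 0.23 with arrays left out. Each member had 1 probe set, so the alternative with all probe sets was not run, and with the filter at the 60th percentile Nbl1 and Id1 gave no value. Dim probe sets limit what the ligand and receptor lists can show.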
